A study of Mus musculus with 3 samples.

Results

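The ETO family consists of 3 genes in the mouse, namely Cbfa2t3 (which encodes ETO2, also called MTG16), Cbfa2t2 (MTGR1) and Runx1t1 (ETO, also called MTG8). They are described here by the ETO2 sites found at and around them. A site was assigned to a gene when its summit, the base with the highest signal, lay in the gene body or within 100 kb of it, or when the nearest protein-coding start site belonged to that gene. By this rule 11 of the 3192 ETO2 sites were assigned, of which 7 belonged to Cbfa2t3, 4 to Runx1t1 and 0 to Cbfa2t2.

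ETO2 occupancy was measured by ChIP-seq (sequencing of chromatin fragments precipitated with an antibody, here anti-ETO2 sc-9741x from Santa Cruz) in FLK1+ mesoderm obtained from embryoid bodies of wild-type C57Bl/6 X Sv129 ES cells. The 3 samples were 2 ETO2 ChIPs and 1 input, which is chromatin sequenced without precipitation. The sample labels give day 4 of embryoid body formation and the series design gives day 3.5, with independent differentiations for the ChIPs, although both peak lists carry the same ChIP name. If they came from 1 chromatin preparation, a site called in both replicates would not be an independent repeat, and which of these holds was not settled. Peaks of replicate 1 were called against the input and peaks of replicate 2 without an input, so that the local background of replicate 2 came from the ChIP itself.

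ETO proteins are co-repressors. They do not bind a DNA sequence themselves but are brought to chromatin by transcription factors, in blood cells mainly by SCL (TAL1) complexes with E-proteins, GATA factors, LMO2 and LDB1, and they recruit NCoR/SMRT and histone deacetylases. ETO2 is best known for holding back erythroid and megakaryocytic genes in progenitors, MTGR1 is broadly expressed, and ETO is best known from its fusion to RUNX1 in acute myeloid leukaemia, where ETO2 can be fused to RUNX1 too. SCL complexes recognise an E-box (CANNTG) and a GATA motif (WGATAR), often as a CTG followed at a short, fixed distance by a GATA.

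The DNA at the strongest ETO2 summits of Cbfa2t3 and Runx1t1 was read from the mm9 assembly and is shown because it carries, or lacks, these SCL complex motifs. Each line gives the 100 bp around a summit on the plus strand, 5′ to 3′. Cbfa2t3 is transcribed from the minus strand and Runx1t1 from the plus strand. Capitals mark E-boxes (CANNTG), GATA motifs (WGATAR, or its reverse complement) and pairs of CTG and GATA that are 8 to 10 bases apart on 1 strand. Sites are named by the distance of the summit from the 5′ end of the gene, counted along its transcription.
Cbfa2t3 −20.8 kb, chr8:125243783-125243882: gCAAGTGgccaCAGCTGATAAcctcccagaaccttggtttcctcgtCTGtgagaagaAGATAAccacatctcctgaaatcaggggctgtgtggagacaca
Cbfa2t3 −21.4 kb (second summit of the same site in replicate 2), chr8:125244407-125244506: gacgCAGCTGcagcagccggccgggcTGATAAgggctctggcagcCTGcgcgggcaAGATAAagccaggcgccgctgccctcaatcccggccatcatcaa
Cbfa2t3 −0.2 kb, chr8:125223138-125223237: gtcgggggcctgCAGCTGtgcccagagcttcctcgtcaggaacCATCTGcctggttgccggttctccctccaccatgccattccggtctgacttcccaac
Cbfa2t3 +32.6 kb, chr8:125190347-125190446: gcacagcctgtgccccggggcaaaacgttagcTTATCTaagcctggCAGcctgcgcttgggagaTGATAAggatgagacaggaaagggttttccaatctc
Cbfa2t3 +13.5 kb, chr8:125209454-125209553: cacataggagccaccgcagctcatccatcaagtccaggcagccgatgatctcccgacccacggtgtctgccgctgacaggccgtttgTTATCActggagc
Runx1t1 −477.9 kb, chr4:13192615-13192714: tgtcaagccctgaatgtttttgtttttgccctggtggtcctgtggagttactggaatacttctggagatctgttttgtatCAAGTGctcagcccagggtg
Runx1t1 −443.3 kb, chr4:13227279-13227378: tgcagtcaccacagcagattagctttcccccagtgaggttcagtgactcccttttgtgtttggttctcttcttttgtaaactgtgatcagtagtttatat

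At the Cbfa2t3 −0.2 kb site and both distal Runx1t1 sites the nearest GATA motif lay outside the 100 bp. The 40 bp stretches centred on it, also on the plus strand, show how close E-box and GATA motifs are to each other there.
Cbfa2t3 −0.2 kb, 63 bp from the summit, chr8:125223105-125223144: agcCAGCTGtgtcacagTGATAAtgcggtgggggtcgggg
Runx1t1 −477.9 kb, 76 bp from the summit, chr4:13192569-13192608: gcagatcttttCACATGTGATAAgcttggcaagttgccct
Runx1t1 −443.3 kb, 95 bp from the summit, chr4:13227214-13227253: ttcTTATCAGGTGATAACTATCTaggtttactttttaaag

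The −21.4 kb window and these stretches were chosen after their values were seen. The strongest element, at −20.8 kb of Cbfa2t3, holds the bases CAGCTGATAA, in which an E-box and a GATA motif overlap, and further on a CTG that is 9 bases from the GATA of a second motif. The −21.4 kb window also has a CAGCTG E-box and 2 GATA motifs, and again 9 bases between a CTG and a GATA.

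In all, the replicate 1 list held 2335 peaks with 12 to 206 fragments at the summit, and the replicate 2 list held 1873 peaks with 18 to 236 fragments. Fragment numbers were recovered from the deposited values. The average fragment coverage of the genome was 3.02 in replicate 1 and 5.19 in replicate 2, so that fragments are compared between replicates only relative to these averages. The read totals stated for the libraries put replicate 1 above replicate 2, and this difference was not resolved. Another depth would multiply every ratio between the replicates by 1 common factor. Fold enrichment is the authors' ratio of summit signal to local background. With 2 libraries there is no replicate spread for a single site, so each site is given with both values, and intervals (95% Poisson for fragments, Wilson for shares) cover counting error only.

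How often both ChIPs found an ETO2 site at Cbfa2t3 and Runx1t1 depended on the overlap that was asked for. With an overlap of 1 bp, of the 11 sites, 8 were called in both replicates (72.7%, Wilson interval 43.4 to 90.3), 1 in replicate 1 alone and 2 in replicate 2 alone. Of all 3192 sites, 31.4% were called in both. With a reciprocal overlap of 50% the share was 25% (4 of 16), near the 26.5% of all sites, and with summits within 50 bp it was 42.9% (6 of 14), against 22.3% of all sites. The 9 replicate 1 peaks at Cbfa2t3 and Runx1t1 had a median fold enrichment of 10.8, against 5.24 over all replicate 1 peaks, and their median of summit fragments was 50 against 27. Most of them lay in sites called in both replicates, and over all such replicate 1 peaks the medians were 6.83 and 37 fragments. In replicate 2 the 11 peaks had a median fold enrichment of 6.13 against 4.85, and 53 fragments against 35. Over all replicate 2 peaks of sites called in both, the medians were 5.38 and 36 fragments. Local background was also higher at these peaks, with a median of 1.64 times the genome average in replicate 1 (1.48 over all peaks) and 1.88 times in replicate 2 (1.08 over all peaks). On chromosome 8, which holds 7 of the 11 sites, the median over all peaks was 1.97 times in replicate 1 and 1.57 times in replicate 2, and its part in these values was not tested.

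**Figure D1:**
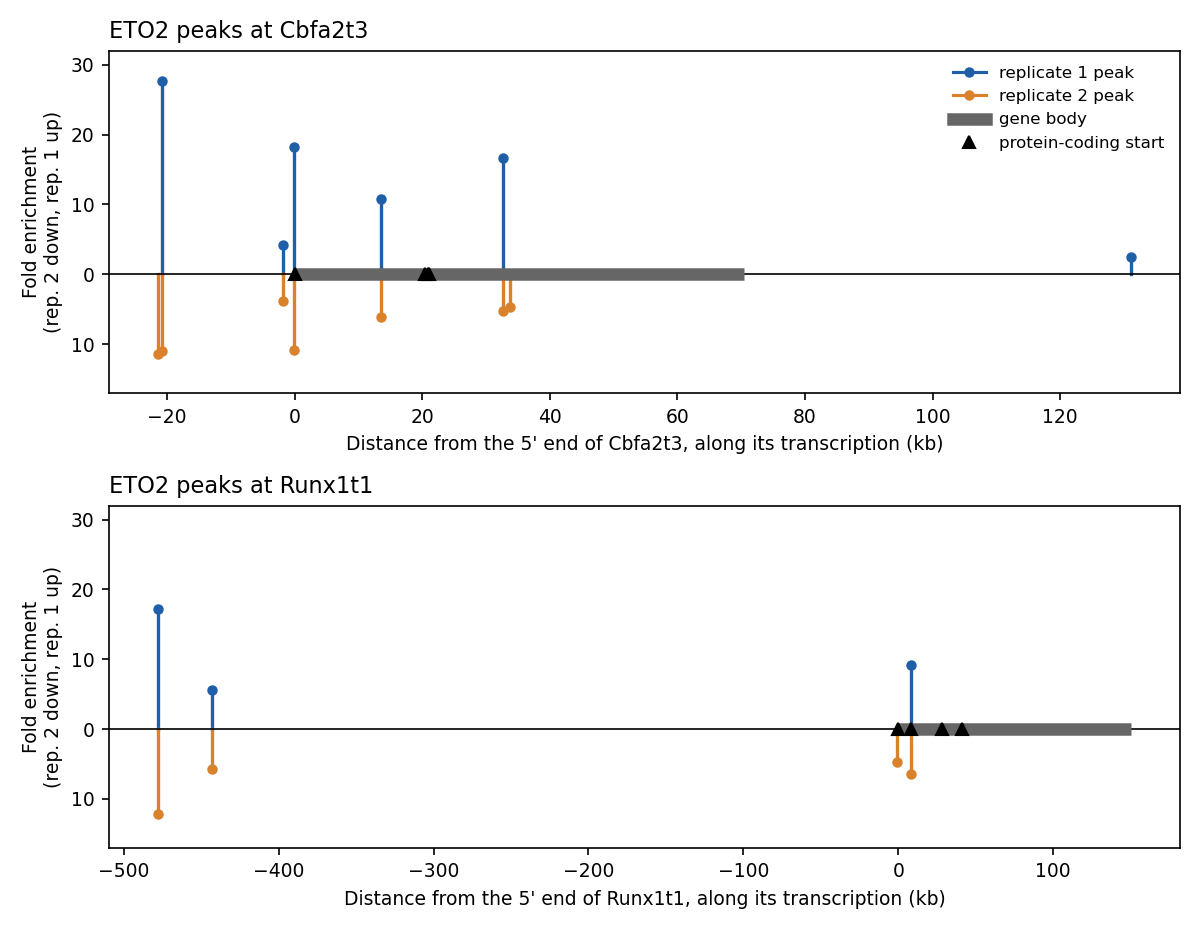
ETO2 peaks at Cbfa2t3 (top) and Runx1t1 (bottom), placed by the distance of the summit from the 5′ end of the gene in kb along its transcription. Stems pointing up give the fold enrichment in replicate 1 and stems pointing down that in replicate 2, the grey bar is the gene body and triangles are protein-coding start sites. Cbfa2t3 has its highest peaks upstream, at the promoter and in an intron, whereas the highest Runx1t1 peak lies 477.9 kb upstream of the gene.

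Cbfa2t3, the gene of ETO2 itself, lies on chromosome 8 (125152639 to 125223009, minus strand, ENSMUSG00000006362.9) and is 70.4 kb long. Its sites were at the promoter, upstream of it and in introns, except for 1 beyond its 3′ end. Of its 7 sites, 5 were called in both replicates, 3 lay in the gene body and 6 had a Cbfa2t3 start as the nearest protein-coding start. Most protein-coding genes had no site by the same rule, since 27.9% had at least 1 and 11.1% had at least 1 called in both replicates.

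The −20.8 kb site of Cbfa2t3 (chr8:125243587-125244617, outside the gene) was among the strongest ETO2 sites of the genome. In replicate 1 it was 1 peak with 206 fragments at the summit (interval 179 to 236) and a fold enrichment of 27.7. By fragments this was the highest peak of the list, and by fold enrichment it ranked 3 of 2335. In replicate 2 the same stretch held 2 peaks, with summits 607 bp apart. The peak nearer to the gene had 183 fragments (157 to 212), a fold enrichment of 11.0 and a summit 17 bp from that of replicate 1. The peak at −21.4 kb had 190 fragments (164 to 219), a fold enrichment of 11.4 and rank 44 of 1873 by fold enrichment or 12 by fragments. More than 1 peak of a replicate in a site was seen at 14 of the 1002 sites called in both replicates (1.40%). It could not occur at other sites, because peaks were merged only between replicates. Relative to the genome average, coverage at the −20.8 kb summit was 68.1 times in replicate 1 and 35.3 times in replicate 2, and the ratio of both was 1.93 (1.58 to 2.37). The local background there was 2.22 times the genome average in the input and 3.02 times in replicate 2, where it includes ETO2 fragments of the neighbourhood. Since the backgrounds differ in kind, the fold enrichments of the replicates are given side by side, and the part of the background in them was not tested.

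The promoter of Cbfa2t3 had a site with its summit 179 bp upstream of the 5′ end of the gene (−0.2 kb, chr8:125222931-125223518). It had 103 fragments (84.1 to 125) in replicate 1 and 156 (132 to 182) in replicate 2, with fold enrichments of 18.2 and 10.9. Summits were 19 bp apart. These values ranked 30 and 53 by fold enrichment, so that the promoter peak was in the top 1.28% and 2.83% of the lists. The summit also lay in Gm10612, a processed transcript. The sequence at the summit has 2 E-boxes, 1 of them CAGCTG, and a further CAGCTG is followed 63 bp from the summit by a GATA motif, with 9 bases between CTG and GATA.

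A weaker site lay 1.85 kb upstream of the promoter (−1.9 kb, chr8:125224570-125225117), 1.67 kb from the promoter summit. It had 34 fragments (23.5 to 47.5) in replicate 1 and 53 (39.7 to 69.3) in replicate 2, with fold enrichments of 4.24 and 3.86. Both fold enrichments were below the median of their lists, while both fragment numbers were above it. The local background was 2.47 times the genome average in replicate 1 and 2.51 times in replicate 2. The summit window held 1 GATA motif, with a CTG at a distance of 8 bases.

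Inside the gene, 3 summits lay in introns. The +13.5 kb site (chr8:125209329-125209798) had 50 fragments in replicate 1 and 50 in replicate 2 (37.1 to 65.9 in both), with fold enrichments of 10.8 and 6.13. It is 6.91 kb upstream of an internal start of Cbfa2t3, which has 3 such starts between 20.4 and 21.0 kb from its 5′ end. The +32.6 kb site (chr8:125190244-125190553) is 11.6 kb downstream of them. It had 80 fragments (63.4 to 99.6) in replicate 1 and 56 (42.3 to 72.7) in replicate 2. Its fold enrichment was 16.7 in replicate 1 (rank 43) and 5.29 in replicate 2 (rank 754). Its window has 2 GATA motifs and a CTG that is 9 bases from 1 of them. The +33.7 kb site (chr8:125189174-125189403), 1.13 kb further on, was called in replicate 2 alone, with 50 fragments and a fold enrichment of 4.71. It had a CAGCTG 12 bp from the summit and no GATA motif within 500 bp.

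The seventh site was unlike the others. At +131.1 kb (chr8:125091732-125092079) it lay 60.8 kb beyond the 3′ end of Cbfa2t3 and 30 bp from a start of Cdt1, a replication licensing factor, and was a member only by the distance of 100 kb. It was called in replicate 1 alone, with 35 fragments (24.4 to 48.7) and a fold enrichment of 2.52, which ranked 2325 of 2335. The input background there was 4.44 times the genome average. It had no GATA motif within 500 bp of the summit. All 7 summits on chromosome 8 also lie within Gm20388, a long protein-coding gene model that spans Cbfa2t3 and its neighbours.

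**Figure D2:**
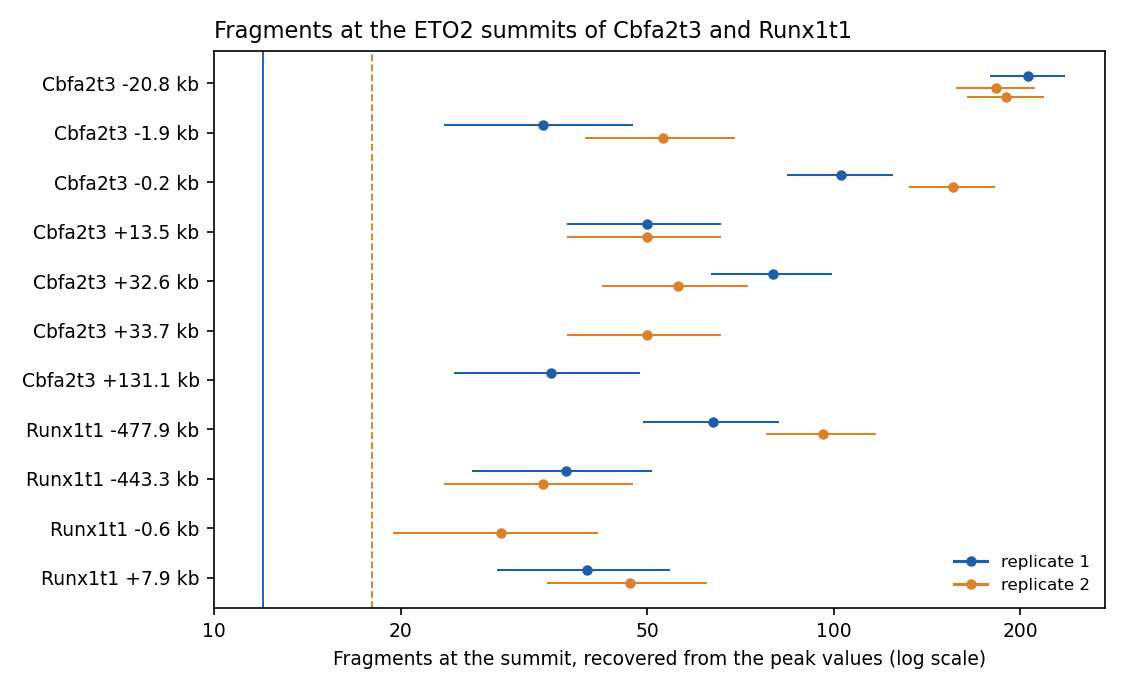
Fragments at the summit (log scale) of each site at Cbfa2t3 and Runx1t1, in replicate 1 (blue) and replicate 2 (orange), with 95% Poisson intervals. The vertical lines mark the fewest fragments with which a peak was called at genome-average background, 12 in replicate 1 (solid) and 18 in replicate 2 (dashed). The −20.8 kb site of Cbfa2t3 has 206 fragments in replicate 1 and 2 peaks of 183 and 190 in replicate 2, more than any other site shown.

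Runx1t1 lies on chromosome 4 (13670583 to 13820796, plus strand, ENSMUSG00000006586.9) and is 150 kb long. It had 4 sites, 3 of them called in both replicates, and its strongest site was far upstream. The −477.9 kb site (chr4:13191832-13192819) lay outside any annotated gene. It had 64 fragments (49.3 to 81.7) in replicate 1 and 96 (77.8 to 117) in replicate 2. Its fold enrichments were 17.2 and 12.2, which ranked 40 and 30. This was the highest fold enrichment of any ETO family peak in replicate 2. Its local background was at the genome average in replicate 1 and 1.34 times this average in replicate 2. The summits were 6 bp apart. The nearest GATA motif, 76 bp from the summit, overlaps an E-box.

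The −443.3 kb site (chr4:13227196-13227654), 34.7 kb closer to Runx1t1, had 37 fragments (26.1 to 51.0) in replicate 1 and 34 (23.5 to 47.5) in replicate 2, with fold enrichments of 5.63 and 5.65. Its summits were 193 bp apart, against a median of 26 bp and a 90th percentile of 80 bp over all 1002 sites called in both replicates, so the replicates placed the peak in 1 region but at different bases. In the 40 bp stretch nearby, an E-box overlaps a GATA motif on each side. These motifs lie farther out than the GATA motif 95 bp from the replicate 1 summit, which does not overlap the E-box. Both distal sites have Runx1t1 as the gene with the nearest start, and the next gene in distance, Fam92a, has its start 1094 and 1128 kb away. They are members by nearest start alone. No contact between these sites and the Runx1t1 promoter was measured.

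Near the 5′ end of Runx1t1 there were 2 sites. The −0.6 kb site (chr4:13669921-13670095), with its summit 593 bp upstream of the gene, was called in replicate 2 alone with 29 fragments (19.4 to 41.6) and a fold enrichment of 4.70. The +7.9 kb site (chr4:13678272-13679018) was called in both, with its summit 8 bp from a second, internal start of Runx1t1 and in an untranslated exon. It had 40 fragments (28.6 to 54.5) in replicate 1 and 47 (34.5 to 62.5) in replicate 2. Fold enrichments were 9.11 and 6.50, and the summits were 9 bp apart.

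At Cbfa2t2 no ETO2 site was found in either replicate. The gene lies on chromosome 2 (154262217 to 154365092, plus strand, ENSMUSG00000038533.9), is 103 kb long and has 6 annotated protein-coding starts. The nearest site after it was 118 kb from the gene body, just outside the distance of 100 kb. That site was at the start of Chmp4b (90 bp away), a subunit of the ESCRT machinery, and was called in replicate 1 alone with a fold enrichment of 4.39. The nearest site before it was 825 kb away. A peak at genome-average background was called from 12 fragments in replicate 1 and 18 in replicate 2, which are 3.97 and 3.47 times the average coverage. Weaker occupancy of Cbfa2t2 was not detectable at this depth. At Cbfa2t3, the nearest site outside the distance was 111 kb beyond the gene, with fold enrichments of 2.83 and 6.02, and that just inside was the +131.1 kb site described above.

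**Figure D3:**
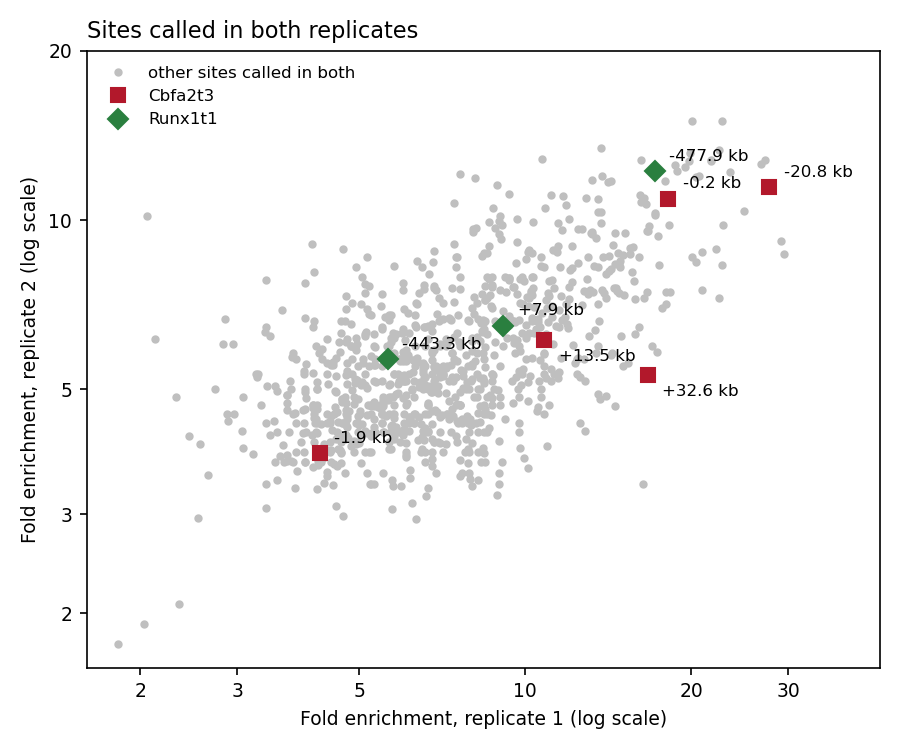
Fold enrichment in replicate 1 (horizontal, log scale) and replicate 2 (vertical, log scale) of the 1002 sites called in both replicates, with the 5 of Cbfa2t3 (red squares) and the 3 of Runx1t1 (green diamonds) named by their distance from the gene. The −20.8 kb and −0.2 kb sites of Cbfa2t3 and the −477.9 kb site of Runx1t1 lie in the upper right corner, with fold enrichments of 17.2 or more in replicate 1 and 10.9 or more in replicate 2.

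Among the sites called in both replicates, those of Runx1t1 had the same order by fold enrichment in both. At Cbfa2t3 the −20.8 kb and the promoter site came first and second in both replicates. The +32.6 kb site had 1.54 times the fold enrichment of the +13.5 kb site in replicate 1 and 0.864 times in replicate 2. By fragments it had 80 against 50 in replicate 1 and 56 against 50 in replicate 2. The intervals overlapped in both replicates (63.4 to 99.6 against 37.1 to 65.9, and 42.3 to 72.7 against 37.1 to 65.9). Overlap of separate intervals does not show that the counts are alike, and their difference was not tested. Relative to the genome average, coverage in replicate 1 was between 1.10 and 2.45 times that in replicate 2 at the 8 sites called in both. The lowest ratio was at the −1.9 kb site (0.694 to 1.73), the next at the promoter of Cbfa2t3 (1.13, 0.875 to 1.46), and the highest at +32.6 kb (1.72 to 3.52). Over all 1002 such sites the median ratio was 1.72 and the middle 80% lay between 1.13 and 2.60. The intervals of the promoter and of the +32.6 kb site, which are near the ends of this range, did not overlap. Both sites were picked after their ratios were seen, and the intervals cover counting error only. Whether the sites differ was not tested.

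Few genes had as many ETO2 sites as Cbfa2t3. By the nearest start, 5 sites called in both replicates fell to Cbfa2t3, and 5 of 22232 gene symbols (0.0225%) had at least 5. The other 4 were Smad7 with 7, Runx1 with 6, Gse1 with 5 and Cited2 with 5, followed by Irs2 with 4. Among these, the summit fragments summed over such sites at Cbfa2t3 (473 in replicate 1 and 505 in replicate 2) were closest to those at Gse1 (500 and 503). By summed fragments Cbfa2t3 ranked 2 of 22232 genes in both replicates. Runx1t1, with 3 sites called in both, ranked 26 in replicate 1 and 16 in replicate 2. Its sum includes both distal sites, which are members by nearest start alone. By the full rule of gene body, distance and nearest start, 18 of 22380 gene identifiers (0.0804%) had 5 or more sites called in both replicates.

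The motifs were counted on both strands. The GATA motif was in the 100 bp window of 4 of the 11 sites (36.4%, Wilson interval 15.2 to 64.6), against 54.4% of all sites. These 4 were all at Cbfa2t3 (−20.8, −1.9, +13.5 and +32.6 kb). In a 200 bp window the GATA motif was at 8 of 11 sites, against 70.9% of all sites. These 8 were the sites called in both replicates, where the GATA motif lay between 10 and 95 bp from the replicate 1 summit. The 3 sites called in 1 replicate had none within 100 bp. At −443.3 kb of Runx1t1 the replicate 2 summit lay 193 bp from that of replicate 1. The 3 GATA motifs of that site are on the other side of the replicate 1 summit, so none is within 100 bp of the replicate 2 summit. Among all 1002 sites called in both, 72.5% had a GATA motif in 100 bp and 89.9% in 200 bp. The share in flanking windows, 500 bp to each side, was 17.2% over all sites.

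**Figure D4:**
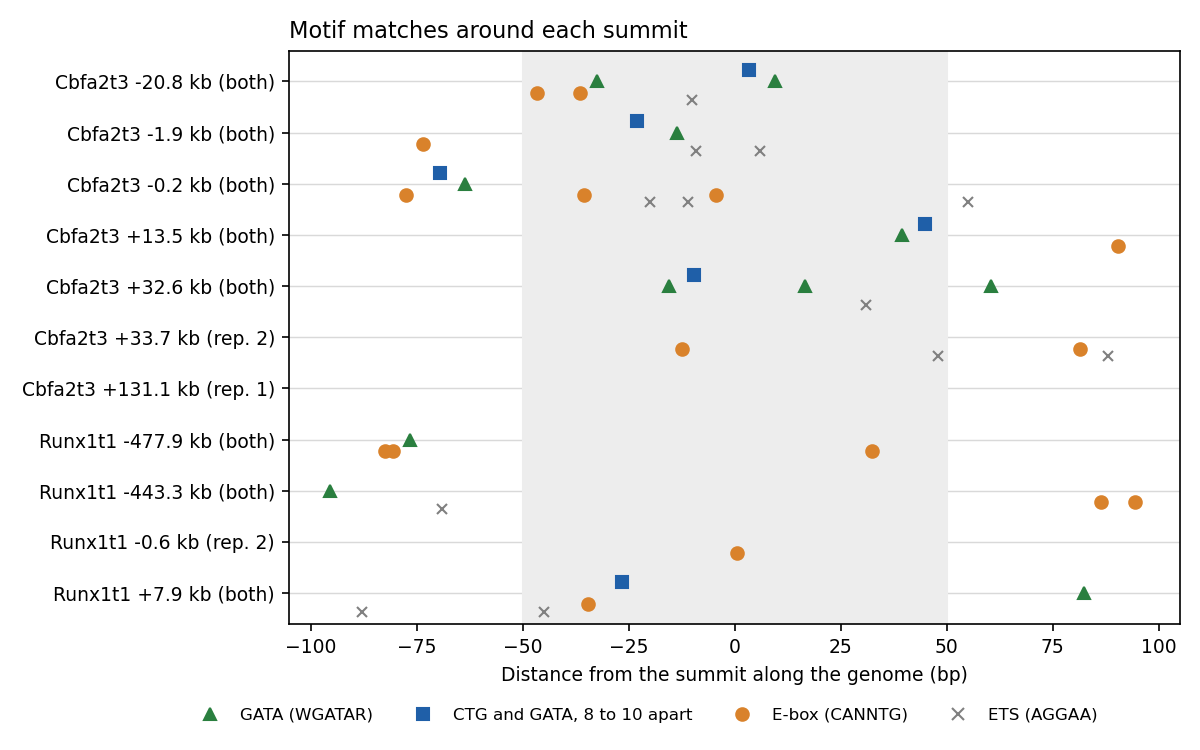
Motif matches within 100 bp of the summit at each site of Cbfa2t3 and Runx1t1, by distance from the replicate 1 summit (replicate 2 where called there alone) in bp along the genome. Triangles are GATA motifs, squares pairs of CTG and GATA, circles E-boxes and crosses ETS cores, and grey marks the 100 bp window. Each of the 8 sites called in both replicates has a GATA motif, 10 to 95 bp from the replicate 1 summit, and the 3 others have none within 100 bp.

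Pairs of CTG and GATA 8 to 10 bases apart were found in the 100 bp window of 4 of 11 sites (Wilson interval 15.2 to 64.6%). They occurred at Cbfa2t3 −20.8, −1.9 and +32.6 kb and at Runx1t1 +7.9 kb. Of all sites 24% had them, as did 2.68% of flanking windows. In 200 bp they were found at 6 of 11 sites, which then included all 5 Cbfa2t3 sites called in both replicates, against 37.2% of all sites. All 6 were called in both replicates, a class in which 54.9% of sites had such a pair. The spacing was 9 bases at 4 of these 6 sites and 8 bases at the other two. The E-box was in the 100 bp window of 6 of 11 sites (Wilson interval 28.0 to 78.7%), against 45.0% of all sites. Its CAGCTG form was in 3 of 11 (9.75 to 56.6%), all at Cbfa2t3, against 11.4% of all sites. CAGCTG was also frequent beside the Cbfa2t3 summits, in 28.6% of their flanking windows against 4.45% of the flanks of all sites. CAGCTG is a form of E-box that SCL and E-protein dimers can bind, and it overlaps CANNTG by definition.

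Motifs of other factors were counted in the same windows. AGGAA, the core of ETS factor motifs, was in the window of 5 of 11 sites (41.4% of all sites and 33.0% of flanks), TGTGGT, the core of RUNX motifs, in 2 of 11 (10.6%), and CCAACC in 0 of 11 (4.79%). RATAGW, which is the GATA motif written backwards and served as a control string, was in 1 of 11 (14.0% of all sites and 13.5% of flanks). Every summit window at Cbfa2t3 and Runx1t1 consisted of unique 24-mers. Of all sites, 77.0% lay in unique sequence, for which the limit was 90% of the 24-mers. By the same limit this share was 93.2% for sites called in both replicates. It was 93.2% for those of replicate 1 alone and 33.0% for those of replicate 2 alone.

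Genes that encode the partners of ETO2 were looked up by the same rule. Of 11 genes of the SCL complex, 5 had a site called in both replicates, namely Tal1 with 2, Lyl1 with 3, Lmo2 with 1, Gata1 with 1 and Gata2 with 2. Tal1 and Lyl1 encode the related basic helix-loop-helix factors of the complex. Of 10 genes of the NCoR/SMRT and histone deacetylase co-repressor complexes, 4 had a site and 1, Sin3b, had a site called in both replicates. Of 10 genes of DNA-binding or other factors that ETO proteins partner with, 6 had a site and 5 had 1 called in both, which were Runx1 (6), Gfi1b (3), Gfi1, Zbtb16 and Bcl6 (1 each). The sites of Gfi1 and Gfi1b were counted by the gene body and the 100 kb around it, since other genes had the nearest start. Among all protein-coding genes 27.9% had a site and 11.1% had a site called in both. Of the 31 genes in these lists, Runx1 alone had more sites called in both replicates than Cbfa2t3, with 6 against 5.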

How the data were processed

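ETO2 ChIP-seq peaks of 2 ChIP samples were analysed. The input was not analysed by itself and enters through replicate 1. Per the study's methods and the submitters' processing notes, reads were trimmed with Trim Galore, aligned to mm9 with Bowtie, cleared of duplicates and called with MACS2 (2.0.10). In the deposited lists the authors give, for each peak, a score, a fold enrichment (a ratio to local background), its p-value and its q-value as −log10, and the summit. A list of merged regions for the series was not used.

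Peaks that overlapped by at least 1 bp were merged into sites, placed at the replicate 1 summit where called there. Summit fragments and local background were solved from fold enrichment and p-value under the Poisson model of MACS2. The largest error in −log10 p was 9.38e-05. The solution was tested on simulated data for which the scale of the library was given. For replicate 1 the scale was searched for as the value with the smallest error, which was 1.34. That search was not tested on simulated data. Starts of protein-coding transcripts came from the GENCODE annotation of the same build. Motifs were searched in 100 bp around the summit, with flanks 500 bp away. Ratios of coverage have exact binomial 95% intervals. No test was run over sites, which are not replicates. Python 3.11.15, scipy 1.17.1, pandas 2.3.3 and pysam 0.24.0 were used.

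The genes, partner lists and motifs were chosen with earlier results of these data known. Named sites are all those called in both replicates and the strongest other site of each gene, with the 4 highest of each gene by fold enrichment chosen to be shown as sequence. The sequences at the 2 sites near the 5′ end of Runx1t1 are not reported here. The genes likened to Cbfa2t3 are the 5 others with the most sites called in both by nearest start. The further sites named were added after their values were seen.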

Additional observations from a re-analysis of the deposited data

How the results depend on the processing

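Of 40 alternative values computed for 8 results, 32 stayed within the limits set for them and 8 moved. These limits were wide, since 6 in place of 7 sites at Cbfa2t3 counted as the same. So did 54.5% in place of 36.4% of sites with a pair of CTG and GATA, in a 200 bp window. The 32 are therefore no measure of how stable the results are. The number of sites was between 6 and 7 at Cbfa2t3, 3 and 4 at Runx1t1 and 0 and 0 at Cbfa2t2 when either replicate was left out. The 7 at Cbfa2t3 without replicate 1 were not the same 7 sites. They lacked the +131.1 kb site and counted the 2 replicate 2 peaks of the −20.8 kb site separately. At Runx1t1 it was 2 in place of 4 when nearest start sites were not used, since both distal sites lie beyond 100 kb. The share of sites called in both replicates, 72.7%, was 25% (4 of 16) with a reciprocal overlap of 50% and 42.9% (6 of 14) with summits within 50 bp, which also changes how many sites there are. The share with a GATA motif rose from 36.4% to 72.7% in a 200 bp window and was between 44.4% and 45.5% when either replicate was left out. The 45.5% (5 of 11, without replicate 1) also counts both peaks of the −20.8 kb site. By −log10 p or by fragments in place of fold enrichment, the rank of the strongest Cbfa2t3 peak went from 3 to 1 and 1 in replicate 1, and from 44 to 3 and 12 in replicate 2. No paired analysis was possible because no test between groups was made. The ChIP libraries were called against different backgrounds, so fold enrichments are not on a common scale.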
